A study of Mus musculus with 2 samples.

Results

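Mature migratory dendritic cells were followed in 2 single-cell RNA libraries of dissociated MC38 tumours, grown from a mouse colon adenocarcinoma cell line. They were chosen by the transcripts in each cell barcode, so the levels of the genes used for the choice describe the cells and are no finding. A barcode needed at least 1000 UMIs (molecular tags that each stand for 1 captured RNA), at most 20% of them mitochondrial, at least 1 UMI of Ccr7, at least 3 of Fscn1, Ccl22, Cacnb3 and Il4i1 together and at least 5 of Cd74 and H2-Ab1 together. It was left out with 20 or more UMIs of C1qa, C1qb and C1qc per 10000, with any UMI of Cd3d or Cd3e, or with more than 3 of Hmga2 and Rhox5, which mark macrophages, T cells and tumour cells. Of 28363 barcodes within the depth and mitochondrial limits, 57 were mature dendritic cells.

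The control library came from a tumour labelled Mbtps1 WT and the other from a tumour labelled Mbtps1 KD, which the series text calls a knockout and the title names SHM. The labels give MC38 as the cell line of both, and they name neither the mouse strain, the age of the mice, the number of mice behind each library nor the cells in which Mbtps1 was altered. Its product, site-1 protease, is a Golgi enzyme that cuts SREBP and ATF6, a step in their release from the membrane, and activates the GNPTAB precursor. Among barcodes with more than 3 UMIs of the tumour genes Hmga2 and Rhox5, the level of Mbtps1 was 28.9 CPM (UMIs of the gene per 1e6 UMIs of the set) in control cells. It was 12.6 CPM in knockdown cells, 0.436 of the control level (0.409 to 0.465). With 1 library per group there is no replicate check on any difference given here and no test, and the 95% intervals, exact Poisson for levels and ratios and exact Clopper-Pearson for shares, cover counting error only.

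Dendritic cells take up antigen in a tissue and, once activated, switch from uptake to migration and T-cell stimulation. The switch brings up the chemokine receptor CCR7, which guides the cells along CCL19 and CCL21 into lymphatic vessels and lymph nodes, and fascin, an actin-bundling protein of their long processes. In tumours such cells are also known for carrying PD-L1, PD-L2 and CD200, which restrain T cells, beside costimulatory molecules and IL-12, which activate them.

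Promoter sequences of 4 genes are shown because the results below return to them. Fscn1 divides the cells, Ccl22 and Ccl17 are neighbouring chemokine genes, and Il12b comes first among the genes named as higher in knockdown. Each sequence runs from 250 bases before to 50 bases after the RefSeq start on GRCm38.p6, and all 4 lie on the plus strand. Capitals mark the TATA box letters TATAAA.
Fscn1, chr5:142960105-142960404: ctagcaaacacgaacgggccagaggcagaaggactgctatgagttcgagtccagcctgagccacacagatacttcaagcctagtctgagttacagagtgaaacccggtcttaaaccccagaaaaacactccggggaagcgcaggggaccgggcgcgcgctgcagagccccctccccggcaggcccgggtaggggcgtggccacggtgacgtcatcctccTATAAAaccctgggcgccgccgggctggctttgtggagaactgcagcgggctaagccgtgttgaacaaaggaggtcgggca
Ccl22, chr8:94745434-94745733: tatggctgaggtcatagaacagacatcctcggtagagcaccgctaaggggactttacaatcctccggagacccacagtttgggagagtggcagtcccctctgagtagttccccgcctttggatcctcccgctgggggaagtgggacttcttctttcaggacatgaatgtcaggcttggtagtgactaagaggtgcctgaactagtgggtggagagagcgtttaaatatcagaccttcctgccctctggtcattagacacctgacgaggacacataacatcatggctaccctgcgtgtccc
Ccl17, chr8:94810203-94810502: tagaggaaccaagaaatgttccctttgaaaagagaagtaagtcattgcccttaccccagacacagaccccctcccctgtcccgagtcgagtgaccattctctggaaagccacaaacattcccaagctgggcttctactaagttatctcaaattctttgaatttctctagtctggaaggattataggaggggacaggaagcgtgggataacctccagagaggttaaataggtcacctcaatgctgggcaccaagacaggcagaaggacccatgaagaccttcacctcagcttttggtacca
Il12b, chr11:44399813-44400112: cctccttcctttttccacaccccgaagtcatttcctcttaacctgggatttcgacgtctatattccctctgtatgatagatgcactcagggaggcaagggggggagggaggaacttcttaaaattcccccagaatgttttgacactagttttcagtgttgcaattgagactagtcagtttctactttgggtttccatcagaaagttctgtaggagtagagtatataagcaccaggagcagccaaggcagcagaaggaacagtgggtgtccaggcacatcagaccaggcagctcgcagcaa
The starts of Ccl22 and Ccl17 lie 64769 bases apart. TATAAA, searched on both strands, was found in 13.6% of 32851 RefSeq promoters of this length and, of these 4, in that of Fscn1, where it begins 31 bases before the start. The NF-kB consensus, searched the same way, was found in 8.46% of promoters and in none of these 4. Of 21 genes described below that were looked up, 15 had a promoter in the table, and Nfkb2 and Pdcd1lg2 held the NF-kB consensus. Such a match describes letters in the window and is not evidence of binding.

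The control library held 35 mature dendritic cells among 12353 barcodes, 0.283% (0.197 to 0.394), and the knockdown library held 22 among 16010, 0.137% (0.0861 to 0.208). The share in knockdown was 0.485 of that in control (0.271 to 0.850). Against the other dendritic cells, caught by gates of the same kind, the shares lay closer. The mature cells were 35 of 65 dendritic cells in control, 53.8% (41.0 to 66.3), and 22 of 46 in knockdown, 47.8% (32.9 to 63.1), which is a ratio of 0.888 (0.496 to 1.56). The denominators differed too, since the knockdown library held 577 cells of the T gate against 216 and its macrophage gate 3156 against 3449. Ptprc, the leukocyte gene that encodes CD45, had a UMI in 17 control and 10 knockdown mature cells. Among barcodes with Ptprc the shares were 0.280% and 0.145%, a ratio of 0.519 (0.212 to 1.20).

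**Figure D1:**
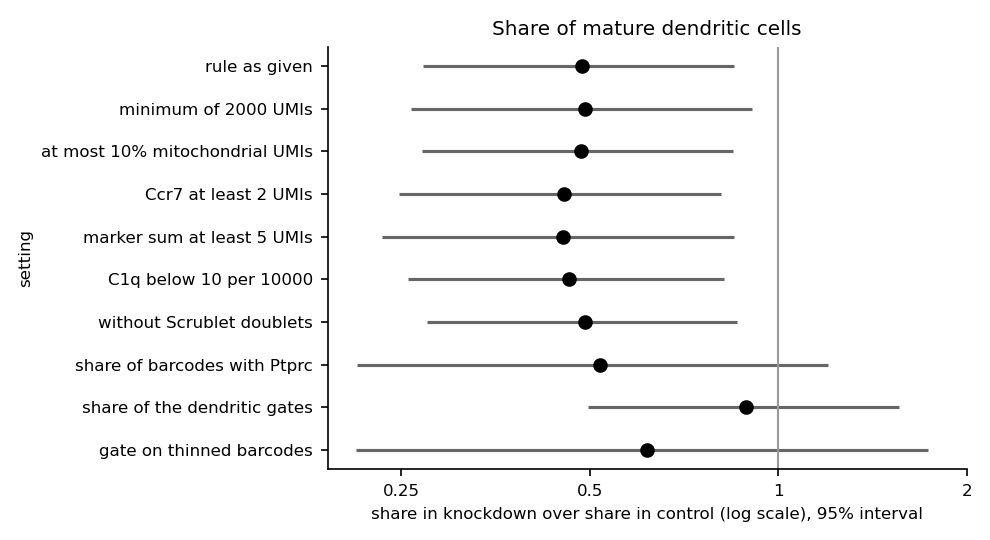
The share of mature dendritic cells in the knockdown library over that in the control library, on a log axis, for the rule as given and for 9 other settings. Points are ratios and lines 95% counting intervals, which hold 1 for the share among barcodes with Ptprc, the share among the dendritic gates and the gate applied after thinning.

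Depth differed between the libraries. Mature control cells had a median of 3748 UMIs (1137 to 13437) and knockdown ones 2930.5 (1694 to 5109), while the median of all barcodes within the limits was 7721 and 5541. When each barcode was first thinned to 1000 UMIs, 10 control and 8 knockdown cells met the rule, a ratio of 0.617 (0.212 to 1.74), and with a higher minimum of UMIs per barcode the ratio was 0.492 (0.259 to 0.907). Below the limit, 0 of 4343 control and 0 of 10503 knockdown barcodes with 500 or more but under 1000 UMIs met the other terms. Ccr7 alone kept out 25 control and 10 knockdown barcodes, the sum of the 4 markers 15 and 18, and the antigen-presentation genes 20 and 6. At the edge of the marker sum, 6 members had exactly 3 UMIs, and 5 barcodes with 2 UMIs met every other term. The libraries shared 51 barcode sequences within the limits and 0 among the mature cells.

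The markers for which the cells are named were used by the rule, so their levels describe the choice. Ccr7, Fscn1, Ccl22 and Cacnb3 were all found in 16 of 35 control and 8 of 22 knockdown cells. Every cell had at least 2 of the 4, which the rule all but requires. Ccr7 stood at 1878 CPM in control and 2793 CPM in knockdown, with a range per cell of 1 to 25 and 1 to 27 UMIs. Fscn1 had 1200 and 1960 CPM, Ccl22 1017 and 1755 CPM, Cacnb3, a calcium channel subunit, 454 and 439 CPM, and Il4i1, a secreted amino acid oxidase that restrains T cells, 400 and 366 CPM. In the macrophage gate Fscn1 had 5.51 and 5.71 CPM and Ccl22 1.30 and 0.908 CPM, a contrast that the rule itself sets.

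Genes the rule did not use set the cells apart from 3 comparison gates, which were cDC1 (Xcr1 or Clec9a, 15 control and 7 knockdown cells), cDC2 (Cd209a, Clec10a or Mgl2, 15 and 17 cells) and macrophages (C1q genes). The 15 genes with the largest smallest ratio over these gates and both libraries were Serpinb9, Tmem123, Pcgf5, Stat4, Samsn1, Ramp3, Serpinb6b, Tbc1d4, Fabp5, Map4k4, Specc1, Mmp25, Pde4d, Marcksl1 and Relb. Serpinb9, an inhibitor of granzyme B, had 671 and 1316 CPM in control and knockdown mature cells against 12.9 and 17.4 CPM in macrophages. Stat4, the transcription factor that relays IL-12 signals in T and NK cells, had 1003 and 994 CPM against 88.5 and 124 CPM in cDC1 cells and 13.2 and 16.7 CPM in macrophages. Ramp3, a partner protein of the calcitonin-like receptor, had 929 and 658 CPM and reached at most 40.4 CPM in the other gates named here. Fabp5, a fatty acid carrier, had 3654 and 3203 CPM against 509 and 493 CPM in macrophages, and 82 of its 219 knockdown UMIs lay in 1 cell. All 15 lay at least 5.35 times above each of the 3 gates in both libraries, with 3 counts put in place of any lower count in a gate. Against the macrophage gate as a whole, 15.1% of 3335 genes compared were at least 2 times higher in mature cells in both libraries and 13.5% at least 2 times lower. A gene was compared with at least 50 CPM in both libraries, in mature cells or in macrophages. The counts by list below are read beside these shares, over the members compared. Those were 11 of 12 for migration and shape, 10 of 11 chemokines, 9 of 17 regulatory molecules, 5 of 12 costimulatory and 14 of 14 NF-kB genes. They were 8 of 9 survival, 9 of 12 class II, 14 of 15 class I and 12 of 15 uptake genes. For interferon, ER chaperone and cell cycle genes they were 17 of 21, 11 of 12 and 6 of 13.

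**Figure D2:**
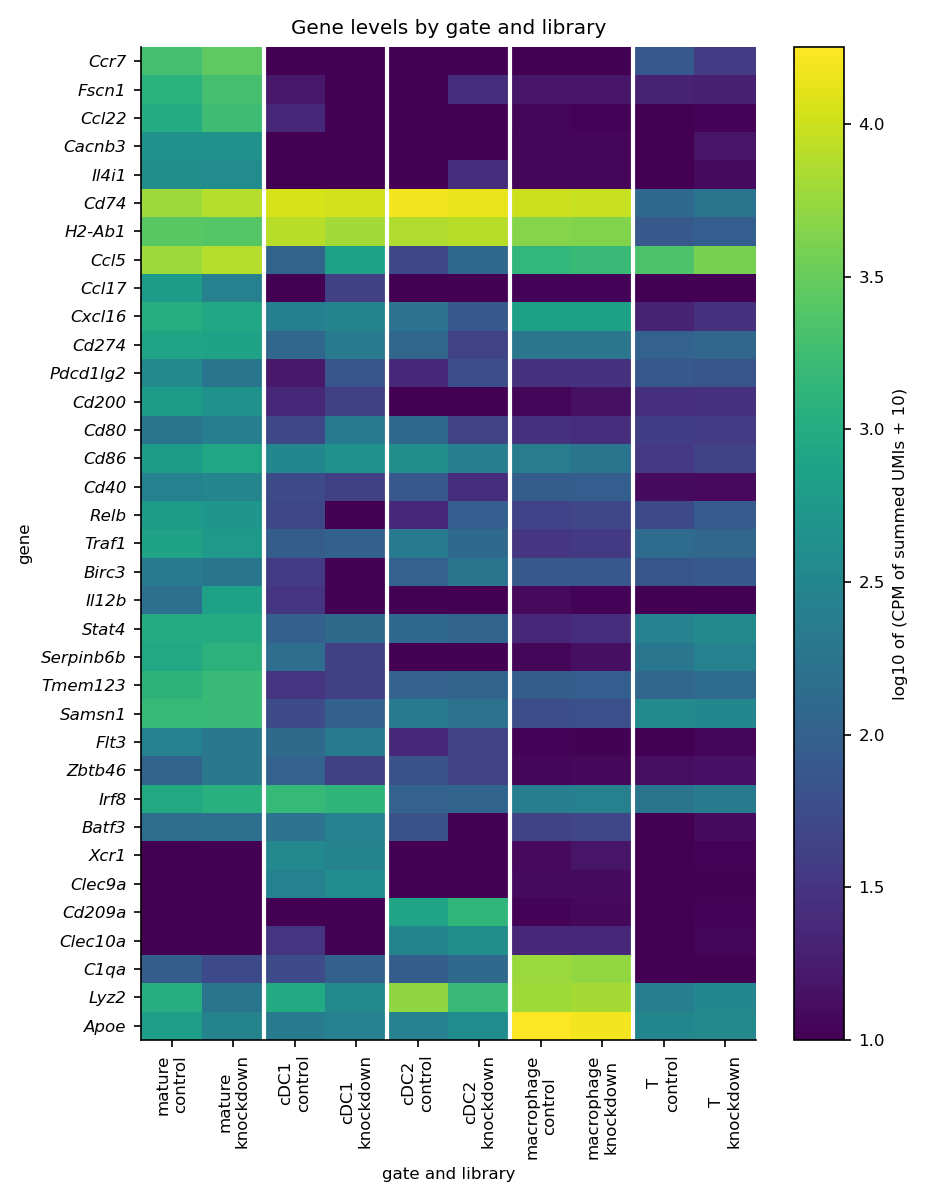
Levels of 35 genes in 5 gates of the 2 libraries, as log10 of CPM of the summed UMIs plus 10. The migration, chemokine, checkpoint and NF-kB genes are brightest in the mature columns, Xcr1, Clec9a, Cd209a and Clec10a are at 0 there, and C1qa, Lyz2 and Apoe are brightest in macrophages.

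Of 12 genes for migration and cell shape, 9 were at least 2 times above macrophages in both libraries and 0 below. Ccr7, Fscn1 and Cacnb3 are among the 9 and were used by the rule. The others included Basp1 (1342 and 1462 CPM), a membrane protein of growing cell processes, Marcks (1159 and 1302 CPM), an actin-regulating substrate of protein kinase C, and Myo1g (515 and 570 CPM), a membrane-bound myosin of blood cells. Marcks had a UMI in all 35 control and all 22 knockdown cells. Gpr183, a receptor for oxysterols that positions dendritic cells in lymphoid tissue, had 271 and 161 CPM, and 19 of its 40 control UMIs lay in 1 cell. Icam1, an adhesion ligand for T cells, did not pass, with 136 and 219 CPM.

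The chemokine genes divided. Of 11 listed, 3 lay above macrophages and 6 below. Above were Ccl22, which the rule uses, and Ccl17, the ligands of CCR4 on regulatory and helper T cells, and Ccl5, which draws T cells, NK cells and monocytes. Ccl5 had 5986 CPM in control and 7663 CPM in knockdown, in 30 and 18 cells, with up to 141 and 137 UMIs in 1 cell, while cDC1 cells had 102 and 712 CPM and macrophages 1428 and 1538 CPM. The 6 below included Cxcl9 (495 and 643 CPM against 1698 and 2864 CPM) and Cxcl10 (67.8 and 292 CPM against 653 and 732 CPM), both ligands of CXCR3 on activated T cells. Cxcl16, the ligand of CXCR6 on tissue T cells, passed neither way with 1064 and 848 CPM against 687 and 692 CPM. Ccl19 had 0 UMIs in both libraries' mature cells.

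Among 17 regulatory molecules 5, with Il4i1 of the rule among them, lay above macrophages and 1 below, and 6 had 0 UMIs in both libraries. Cd274, which encodes PD-L1, had 786 and 731 CPM against 182 and 182 CPM in macrophages and had a UMI in 31 of 35 control and 19 of 22 knockdown cells. Thinned to 1000 UMIs, 65.7% of control and 59.1% of knockdown mature cells held Cd274, against 8.80% and 10.2% of the T gate. Pdcd1lg2, which encodes PD-L2, had 332 and 175 CPM, Cd200 590 and 439 CPM and Socs2, a suppressor of cytokine signalling, 305 and 424 CPM. Macrophages had 19.3 and 18.9 CPM of Pdcd1lg2, 1.30 and 3.96 CPM of Cd200 and 6.52 and 4.28 CPM of Socs2. The 6 genes with no UMI were Aldh1a2, which makes retinoic acid, Ido1 and Ido2, which break down tryptophan, Itgb8, Il10 and Lgals9. A count of 0 allows up to 20.3 CPM in control and 43.9 CPM in knockdown.

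The same cells held costimulatory genes. Of 12 listed, 5 were above macrophages and 0 below: Cd80 and Cd86, the ligands of CD28, Cd40, the receptor through which helper T cells license dendritic cells, Cd83 and Tnfrsf9. Cd86 had 583 and 834 CPM against 232 and 171 CPM, Cd80 176 and 234 CPM against 18.9 and 16.7 CPM, and Cd40 251 and 292 CPM against 80.1 and 83.4 CPM. Cd83, a marker of mature dendritic cells, had 773 and 863 CPM but also 511 and 619 CPM in cDC1 cells. PD-L1 and CD80 transcripts were found together in 25 of the 57 cells, Cd274 alone in 25, Cd80 alone in 2 and neither in 5.

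Of 14 NF-kB genes 10 were above macrophages and 0 below. The pathway has a branch through RelA and p50 and a slower branch in which the kinase encoded by Map3k14 drives processing of the Nfkb2 product, the partner of RelB. Relb had 583 and 497 CPM, Rel 1078 and 1360 CPM, Traf1, an adaptor of TNF receptors, 746 and 570 CPM and Map3k14 386 and 322 CPM. Macrophages had 35.7 and 38.8 CPM of Relb and 22.9 and 25.9 CPM of Traf1. Rela itself was low, with 8 UMIs in each library, 54.2 and 117 CPM. Of 9 survival genes 3 passed above and 0 below: Birc3, which is also in the NF-kB list, and Bcl2a1b (2136 and 1974 CPM) and Bcl2a1d (1424 and 980 CPM), near-identical copies whose reads may have been split between them.

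Antigen-presentation genes went the other way for class II and little either way for class I. Of 12 class II genes 0 were above macrophages and 4 below, among them Ctss, the protease that trims the invariant chain (990 and 746 CPM against 3595 and 3649 CPM), and H2-DMa (183 and 58.5 CPM against 557 and 572 CPM). H2-Aa, the alpha chain, had 4190 and 4665 CPM against 4230.0 and 4043 CPM in macrophages, and 6674 and 7577 CPM in cDC2 cells. Of 15 class I genes 2 were above and 0 below: Psme2, a proteasome activator subunit, with 1125 and 1009 CPM against 325 and 393 CPM, and Nlrc5, the transcriptional activator of class I genes, with 183 and 322 CPM against 69.2 and 77.5 CPM.

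Genes of uptake were low against macrophages, but their summed level was not below that of the cDC1 gate. The list summed to 1322 and 819 CPM in control and knockdown mature cells. It summed to 688 and 650 CPM in the cDC1 gate and 2785 and 1898 CPM in the cDC2 gate. Of 15 uptake and sensing receptors, of which 14 were matched by name, 0 were above macrophages and 9 below, among them the lysosomal protease gene Ctsb (258 and 175 CPM against 2352 and 2690 CPM) and Cd68 (40.7 and 29.2 CPM against 541 and 571 CPM). Interferon-response genes passed in 0 of 21 cases above and 2 below, with 20 matched by name. Of 12 ER chaperone genes 0 were above and 7 below, including Calr (190 and 234 CPM against 691 and 821 CPM) and Hsp90b1. Of 13 cell cycle genes 0 were above and 3 below, and none reached 20 UMIs over both libraries.

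The lineage genes were mixed. Irf8, a transcription factor that cDC1 cells need, had 942 and 1155 CPM in mature cells, against 1498 and 1332 CPM in the cDC1 gate, 94.2 and 102 CPM in the cDC2 gate and 233 and 251 CPM in macrophages. Batf3, another cDC1 factor, had 136 and 146 CPM against 163 and 248 CPM in the cDC1 gate. Xcr1 and Clec9a, the surface receptors of cDC1 cells, had 0 UMIs, as had Itgae and Tlr3, and Wdfy4 had 3 UMIs in each library. Cd209a and Clec10a, markers of cDC2 cells, also had 0 UMIs, and Irf4, a cDC2 factor, had 1 and 4. The general dendritic genes Flt3 (258 and 190 CPM), Zbtb46 (102 and 190 CPM) and Id2 (719 and 731 CPM) were present, Flt3 and Zbtb46 against at most 1.62 CPM in macrophages. Cd207 of Langerhans cells, Siglech of plasmacytoid cells and Cd79a and Ms4a1 of B cells were at 0.

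Macrophage genes were present in the mature cells at different levels in the libraries. The 11 macrophage markers summed to 2034 CPM in control and 658 CPM in knockdown mature cells, against 42023 and 38693 CPM in the macrophage gate. All 11 were at least 2 times below that gate, but C1qa, C1qb and C1qc are among them and in the sums. The rule and the macrophage gate set the contrast for those genes in advance. Per cell the sum ranged from 0 to 151 UMIs per 10000 in control and from 0 to 23.2 in knockdown, with medians of 4.47 and 5.56. Of 156 Lyz2 UMIs in control, 98 lay in 1 cell and 46 in another, and no other cell of either library held more than 2. From genes of other cell types, free RNA was estimated at 7.08% of the UMIs of control and 11.7% of those of knockdown mature cells. Hmga2 and Rhox5, which the rule limits, are among those genes, so the choice of cells can lower the estimate. The 10 T-cell markers summed to 468 and 307 CPM, nearly all of it Il7r (447 and 278 CPM). Of the 10, 6 had 0 UMIs, among them Cd3d and Cd3e, which the rule holds at 0. Scrublet, a doublet caller, marked 3.86% of control and 4.97% of knockdown barcodes and 0 of the mature cells.

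The 57 cells differed among themselves, and Fscn1 marked one division, chosen after the values were seen. Fscn1 had a UMI in 27 of 35 control and 15 of 22 knockdown cells, and the cells without it had passed the rule through Ccl22, Cacnb3 or Il4i1. Median depth was 3794 UMIs with Fscn1 and 3374 without in control, and 3225 and 2660 in knockdown. Of the class II genes that the rule does not use, H2-Aa had 6002 CPM without and 3531 CPM with Fscn1 in control, and 6866 and 3840 CPM in knockdown. H2-Eb1 had 5748 against 2875 CPM in control and 7134 against 3559 CPM in knockdown. The control contrast leaned on few cells. Of the 226 H2-Eb1 UMIs of the 8 control cells without Fscn1, 87 and 85 lay in single cells of 13437 and 8285 UMIs. Those cells also held 94 and 62 of the 236 H2-Aa UMIs. The other control cells without Fscn1, of 1341 to 4511 UMIs, held 2 to 22 H2-Eb1 and 5 to 31 H2-Aa UMIs each. The contrast without the 2 deep cells was not computed, so the control values do not show a difference beyond those cells. The rule uses Fscn1, Cd74 and H2-Ab1, so the levels of Cd74, 9944 against 4622 CPM in control and 11747 against 6213 CPM in knockdown, are given as a description. Ccl5 had 2060 CPM without and 7413 CPM with Fscn1 in control, and 4667 and 8787 CPM in knockdown. The 2 deep cells held 15 and 0 of the 81 Ccl5 UMIs of the control cells without Fscn1, and this contrast was not computed without them either.

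Over 523 of the 620 genes with at least 50 UMIs, 10 (1.91%) were at least 2 times higher in the cells without Fscn1 in both libraries. At least 2 times lower were 15 (2.87%), and Fscn1 itself was not counted. The 8 control cells without Fscn1 include the deep cells of 13437 and 8285 UMIs, against 1341 to 4511 UMIs in the others. Levels are of summed UMIs, so these deep cells weigh most in the control levels without Fscn1. The 10 and 15 genes were not recounted without them. For control, the counts therefore do not show a difference beyond those cells. No class II gene was among the 10. Heat shock genes were among the 10, with Hspa1a at 2289 CPM without against 813 CPM with Fscn1 in control and 3701 against 1046 CPM in knockdown, beside Hsph1 and Dnajb1. Ifitm3, an interferon-induced membrane protein gene, was also higher, with 1373 against 573 CPM and 1824 against 804 CPM, as was Spi1, which encodes the myeloid factor PU.1. Among the 15 lower genes were Irf1, an interferon-regulated factor, with 50.9 against 342 CPM in control and 53.6 against 543 CPM in knockdown, Cd200, Socs2, Cd63, Tbc1d4 and the NF-kB inhibitor gene Nfkbib. Cd200 had 254 against 712 CPM and 215 against 523 CPM. Socs2 had 0 UMIs in the 8 control cells without Fscn1 and 45 in the other control cells.

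**Figure D3:**
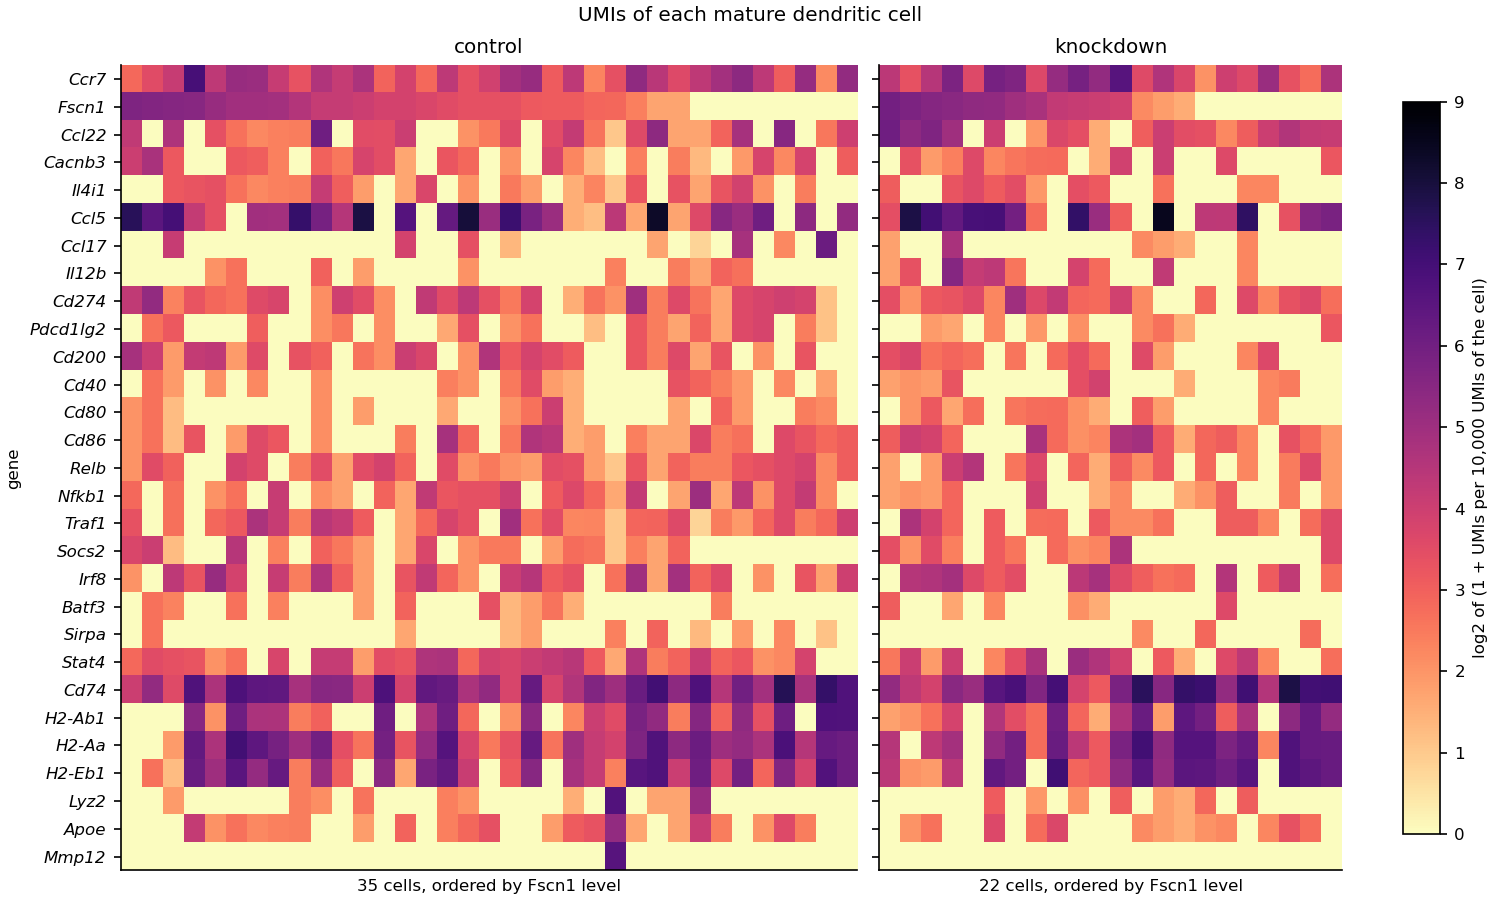
UMIs of 29 genes in each of the 35 control and 22 knockdown cells, as log2 of 1 plus UMIs per 10000, ordered within each library from the highest Fscn1 level at the left. Cd74 and the H2 genes are dark in several but not all of the cells without Fscn1. Ccl17 and Il12b appear in a minority of cells, and Lyz2 stands out in 2 control cells and Mmp12 in 1 of them.

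Ccl17 and Il12b were each restricted to some of the cells. Ccl17 had a UMI in 9 of 35 control and 6 of 22 knockdown cells, and all 15 of these also held Ccl22, which was found in 46 of the 57. Il12b, the p40 subunit shared by IL-12 and IL-23, had a UMI in 10 cells of each library. Both genes were found in 7 cells, Il12b alone in 13, Ccl17 alone in 8 and neither in 29. Il12a, Il23a and Il27 had 0 UMIs.

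Knockdown and control cells were compared over 620 genes with at least 50 UMIs and 50 CPM in 1 library. At least 1.5 times higher in knockdown were 64 genes (10.3%) and at least 1.5 times lower 84 (13.5%), with a median log2 ratio of 0.06 over all 620. Of the 84 lower genes, 6 had at least 50% of their UMIs in 1 cell. The highest and lowest genes named next were therefore also read without the cell of each library that held most of them. The genes named by list further below were mostly not.

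Il12b came first among the genes named as higher, in the order of the interval end nearest 1. The knockdown cells held 49 UMIs of it, 717 CPM, and the control cells 21, 142 CPM. The 10 positive control cells held 1 to 4 UMIs each, and 7 of the 10 knockdown ones lay within that range too. The ratio was 5.03 (2.96 to 8.84), and 3.56 without the richest cell of each library, which in knockdown held 21 UMIs. After thinning, 8.57% of control and 40.9% of knockdown cells held Il12b, against 0% of the T gate in both libraries, whose cells had medians of 2871.5 and 2235 UMIs. Among the other cytokine genes Il1b lay close, with 1302 and 1477 CPM and 1.13 for the ratio (0.883 to 1.45). Il15, which sustains NK and memory T cells, had 15 and 4 UMIs. Il15ra, of the same list, had 19 UMIs in 13 control cells and 2 UMIs in 2 knockdown cells, too few to be compared by the limit used here.

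The other 9 genes at the top had ratios between 1.89 and 2.53. They were the chaperone genes Hsp90aa1 (868 and 1887 CPM, 2.17, 1.69 to 2.80) and Dnaja1, Ywhaz, which encodes a 14-3-3 protein, Serpinb9 (1.96, 1.46 to 2.64), the cyclin gene Ccnd2 (2.16, 1.41 to 3.30), Ubash3b, Gfpt1, the entry enzyme of the hexosamine pathway, the RNA gene Snhg15 and Ptprj. Each stayed at least 1.5 times higher without its richest cells. In the thinned cells Ccnd2 and Dnaja1 were under 1.5 times, at log2 ratios of 0.35 and 0.45.

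**Figure D4:**
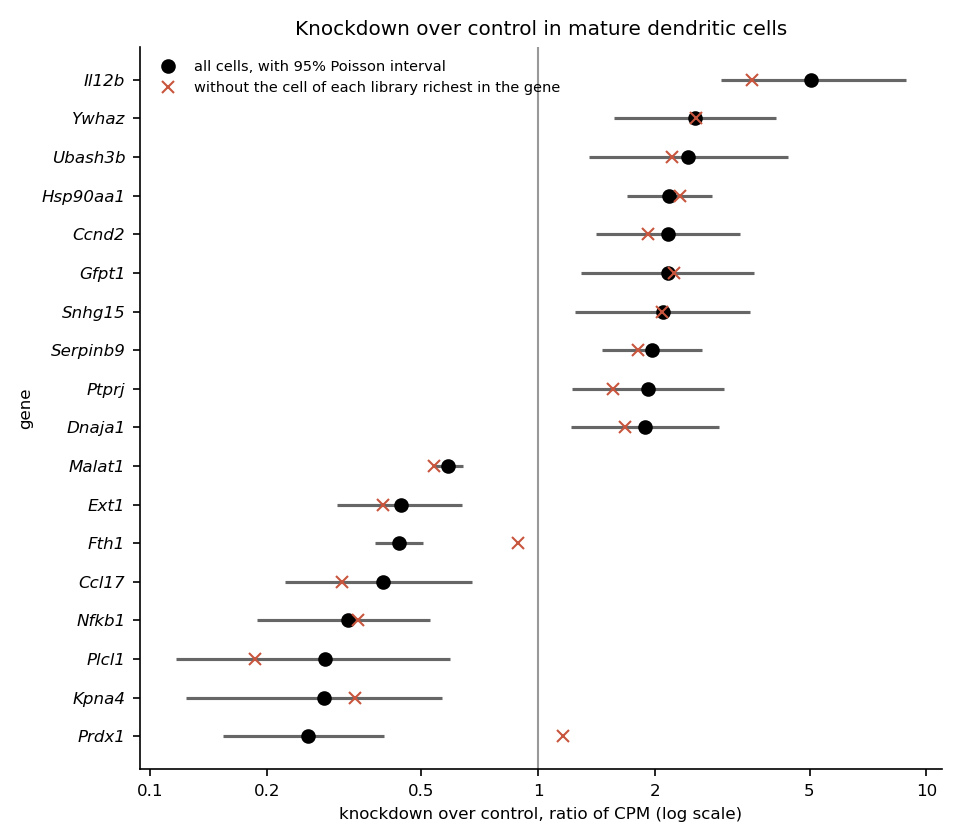
Ratio of CPM in knockdown over control mature dendritic cells, on a log axis, for 18 of the 20 named genes (S100a3 and Mmp12, with 0 knockdown UMIs, are not drawn). Circles are all cells with 95% Poisson intervals and crosses the ratio without the cell of each library richest in the gene, which moves Prdx1 and Fth1 to 1.16 and 0.888 and leaves the other genes on the side of 1 where they were.

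Of the 10 lowest genes, 4 rested on single control cells. S100a3, a calcium-binding protein gene, had 98 UMIs in 1 control cell and 0 in all others of both libraries. Mmp12, the macrophage elastase, had 92 UMIs in 1 other control cell and 0 elsewhere, and that cell also held 98 of Lyz2, 661 of Fth1 and 146 of Prdx1. Fth1, the ferritin heavy chain, went from a ratio of 0.439 to 0.888 without the richest cells, and Prdx1, a peroxide-reducing enzyme, from 0.254 to 1.16. The part of macrophage RNA in these values was not tested.

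The other low genes stayed below 1 without the richest cells. Nfkb1, the precursor of the p50 subunit, had 127 UMIs in 27 control cells, 861 CPM, and 19 UMIs in 12 knockdown cells, 278 CPM, a ratio of 0.323 (0.188 to 0.525). One control cell held 43 of the 127, and without the richest cells the ratio was 0.344. Macrophages of the same libraries had 181 and 204 CPM of Nfkb1. Ext1, an enzyme of heparan sulphate synthesis, had 1220 and 541 CPM (0.443, 0.303 to 0.634), Kpna4, a nuclear import receptor, 468 and 132 CPM (0.281, 0.123 to 0.566) and Plcl1 414 and 117 CPM (0.283, 0.117 to 0.593). Malat1, a nuclear RNA, had 15376 and 9009 CPM (0.586, 0.535 to 0.641), and in macrophages 6446 and 5728 CPM.

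The control cells held 92 UMIs of Ccl17 and the knockdown cells 17, which gave a ratio of 0.399 (0.223 to 0.673). One control cell held 57 of them and one knockdown cell 12, and the shares of thinned cells with Ccl17 were 11.4% and 13.6%. Its ratio was 0.312 without those cells. With a marker sum of at least 5 required, the log2 ratio was -0.01.

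**Figure D5:**
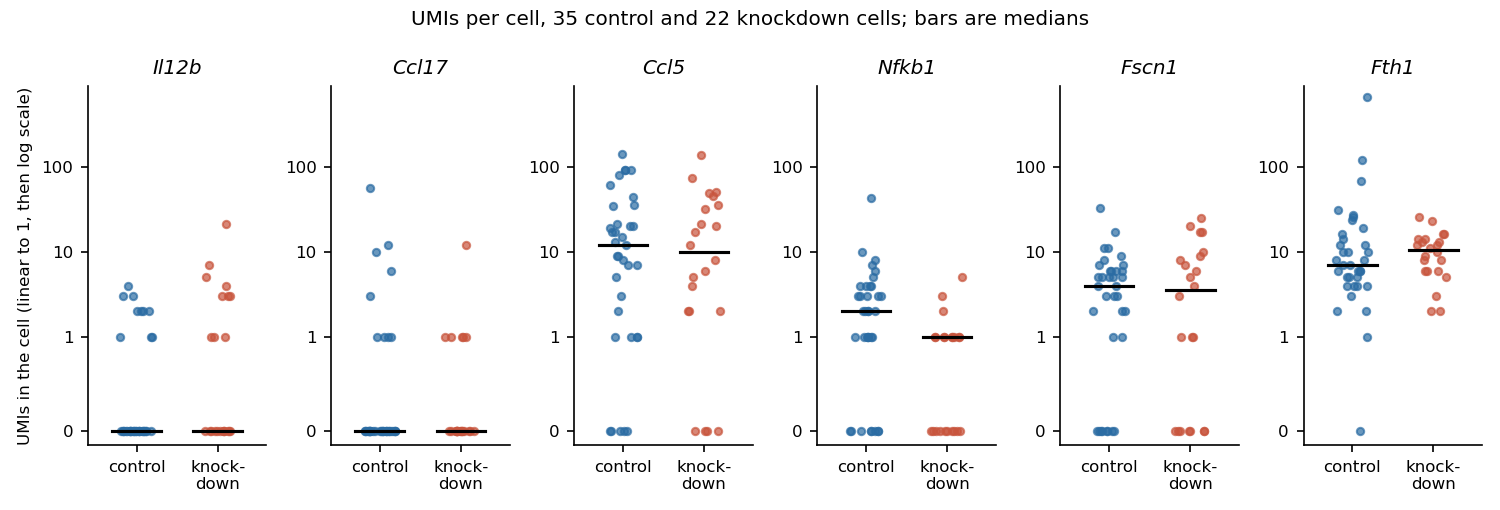
UMIs per cell of 6 genes in control (blue) and knockdown (red) cells, with bars at the medians, on an axis linear to 1 and logarithmic above. The ranges overlap for every gene, and single cells reach 57 UMIs of Ccl17, 43 of Nfkb1 and 661 of Fth1 in control and 21 of Il12b in knockdown.

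The counts by list stand beside 10.3% higher and 13.5% lower over all genes compared. Of the migration and shape list 9 genes could be compared, with 2 higher, Marcksl1 and Fscn1 of the rule, and 2 lower, Anxa3 and Gpr183. Of 5 chemokines compared 1 was higher, Ccl22 of the rule at 1.73 (1.35 to 2.21), and 1 lower, Ccl17. Il12b was the 1 higher of 2 cytokines compared, and Apoe, lower, was the 1 gene of cholesterol efflux compared. Without the 2 control cells richest in Lyz2, the log2 ratio of Apoe was -0.17 instead of -1.24. Of 14 NF-kB genes, 8 had the depth to be compared, and 0 were higher and 1 lower, Nfkb1. Relb had a ratio of 0.853 (0.556 to 1.28), Rel 1.26 (0.966 to 1.64) and Nfkb2 1.08 (0.509 to 2.18), and the median log2 ratio of the 12 members with at least 20 UMIs was -0.13. Of 17 regulatory molecules 5 could be compared, with 0 higher and 1 lower. That one was Pdcd1lg2, with 49 and 12 UMIs and a ratio of 0.528 (0.256 to 1.01), while Cd274 had 0.930 (0.654 to 1.31) and Cd200 0.744 (0.474 to 1.14). Of 12 costimulatory genes 3 could be compared and 0 passed either way, with Cd86 at 1.43 (from just above 1 to 2.02) and Cd40 at 1.17 (0.641 to 2.06).

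Class II genes had a median log2 ratio of 0.02 over 6 members, with 0 past 1.5 times, and H2-Aa had a ratio of 1.11 (0.970 to 1.28). Of 15 class I genes 10 could be compared, with 0 higher and 2 lower: Psmb9, an immunoproteasome subunit, at 0.572 (0.356 to 0.889), and H2-Q7 at 0.645 (0.429 to 0.949), which has close copies among the H2-Q genes. Of the interferon list 4 genes could be compared and 2 were higher, Gbp2 and Irf1, each with 39 and 28 UMIs and a ratio of 1.55 (0.918 to 2.58). Anxa3, of the migration list, had a ratio of 0.512 (0.264 to 0.928) and Marcksl1 1.66 (1.07 to 2.55). Of the 40 knockdown UMIs of Marcksl1, 13 lay in 1 cell. Without the richest cell of each library its log2 ratio was 0.28 instead of 0.73, which is under 1.5 times. Of the 12 tissue-dissociation genes 4 could be compared and 0 passed, with a median log2 ratio of 0.09.

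Site-1 protease and its substrates were near the limit of detection in these cells. Mbtps1 had 5 UMIs in the 35 control and 1 in the 22 knockdown mature cells, which leaves the ratio (0.431) an interval from 0.00912 to 3.86, and in macrophages 19.2 and 19.5 CPM. Of the 11 genes of the pathway, 1 reached 20 UMIs. That was Gnptab, whose product is activated by site-1 protease, with 34 UMIs in 18 control cells and 6 in 5 knockdown cells, a ratio of 0.381 (0.131 to 0.917), while macrophages had 67.3 and 64.7 CPM. Srebf2, the sterol-regulated substrate, had 12 and 7 UMIs and Atf6 4 and 0. Of 19 genes of cholesterol synthesis and uptake 1 could be compared, Pmvk, at 292 and 307 CPM with a ratio of 1.05 (0.594 to 1.81). Hmgcs1, an early enzyme of the synthesis, had 14 and 2 UMIs, and the 19 genes together summed to 786 and 556 CPM, a ratio of 0.707 (0.476 to 1.03).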

How the data were processed

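Libraries were made with a 10x 3' droplet kit (labels' protocols). As deposited, the counts are UMIs of 32285 features for every barcode without a cell filter, made by Cell Ranger 4 per the file headers. No source used here states the genome build, the annotation or how reads shared by similar genes were counted. The control and knockdown matrices hold 177399315 and 174190399 UMIs. The mature cells, lists and thresholds were chosen with earlier results of these data known. No other per-sample columns were left out.

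Counts were summed over the cells of each gate and library and scaled to CPM (Python 3.11.15, NumPy 2.4.6, SciPy 1.17.1, pandas 2.3.3). The mature cells held 147501 and 68377 UMIs in control and knockdown. No test was made with 1 library per group. An observed 0 allows up to 3 counts. Genes compared between libraries had at least 50 UMIs over both and 50 CPM in 1, and a list median took members with at least 20 UMIs. Named genes are those of the rule, the 10 highest and 10 lowest by the interval end nearest 1 outside mitochondrial, ribosomal, unnamed and receptor genes and above empty droplets (at most 100 UMIs), the 15 furthest above 3 gates with at least 100 CPM, and of each list the leading and extreme members and those whose role is explained; the genes shown for the division by Fscn1 were chosen after their values were seen. Shares of cells with a UMI were taken after thinning each cell to 1000 UMIs. Free RNA was estimated from genes of tumour, stromal and other cell types against empty droplets. Doublets were called with Scrublet in scanpy 1.11.5 and kept unless said. The interval was checked on simulated counts. Alternatives covered the depth, mitochondrial, Ccr7, marker and C1q limits, doublets, denominators, thinning, equal cell weights, free RNA, centring, gene filters and single cells left out. Promoters are from RefSeq (GRCm38.p6).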

Additional observations from a re-analysis of the deposited data

How the results depend on the processing

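The share of mature dendritic cells in knockdown over control was 0.485 and kept its direction in all 9 alternatives, between 0.452 with a marker sum of at least 5 UMIs and 0.617 after thinning the barcodes, except that it moved out of its counting interval, to 0.888, as a share of the dendritic gates. The counts of 64 higher and 84 lower genes became 26 and 16 of 176 genes compared after thinning to 1000 UMIs, where fewer genes have the depth, and 212 and 323 of 1614 genes with a limit of 20 UMIs and 20 CPM; the other 11 alternatives gave 48 to 73 and 67 to 95. The genes higher in knockdown were 43.2% of those past 1.5 times, 33.6% after centring on the median and 61.9% after thinning, where the median log2 ratio was 0.23 instead of 0.06. Of 189 list medians recomputed, 181 stayed within their intervals, and of 777 log2 ratios of 60 genes, 736 did. The log2 ratio of genes past 1.5 times changed sign, the cause not tested beyond the cells left out, for Prdx1 without its richest cell (0.21), and, without the 2 control cells richest in Lyz2, an alternative chosen after seeing the data, for Prdx1 (0.45), Fth1 (0.20) and Lyz2 (0.86); Apoe then stood at -0.17 instead of -1.24. Ratios near 0, such as that of H2-Ab1 (0.27 after thinning instead of -0.12), changed sign too, as did the interferon list's median, from 0.50 to below 0 after thinning. The gate on thinned barcodes and the counts without the deepest cells were also added after seeing the data. No paired analysis was possible because each group has 1 library. Depth limits all genes under 50 UMIs, most of the cytokine, interferon and site-1 protease lists among them.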
